A study of Mus musculus with 30 samples.

Results

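The proteasome is a barrel-shaped protease with regulatory caps, and its subunit genes were followed here through postnatal maturation of the mouse hippocampus, in Nf1+/- and wild-type males. Members were all non-control probe sets of the Affymetrix MG-U74Av2 array with 1 gene symbol that begins with Psma, Psmb, Psmc, Psmd or Psme, without the immunoproteasome genes Psmb8, Psmb9 and Psmb10. Of 12422 non-control probe sets, 50 met this rule on symbols, for 39 genes, and 42 of them, for 36 genes, had a mean intensity of 31 or more over the 30 arrays and are described below. The dimmest of the 42 was the probe set of Psmd10, at a mean of 52.9, and the brightest probe set left out was one for Psmb4, at 27.8. The 8 dim probe sets left out included those of Psmc4, Psmd2 and Psmc3ip, which had no brighter one. The other 5 belonged to Psmb1, Psmb4, Psmc5 and Psme1, which a brighter probe set represents. Psme2 is named on this array only by probe sets that carry several symbols and is therefore no member. Most members code for subunits of the particle or its activators. The exceptions are Psme3ip1, which codes for a protein that binds an activator, and Psmd5, Psmd9 and Psmd10, which code for assembly chaperones. These meet the rule by their symbols and are counted with the members.

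Each library held total RNA of hippocampi pooled from 2 male pups of 1 genotype, from a cross of C57BL/6 mice with Nf1 heterozygous mice. The 15 Nf1+/- libraries came from P10 (4), P15 (4), P18 (2), P20 (2), P28 (2) and P32 (1), with P for the postnatal day, and the 15 wild-type libraries from P10 (3), P15 (4), P18 (2), P20 (2), P28 (2) and P32 (2). Codes such as 1a and 2b are taken from the titles, where their meaning is not explained, and serve here to name a library within its group. The code's number is 1 in both Nf1+/- P20 libraries and 2 in both wild-type P20 libraries, and both numbers occur in each group at P10 and P15. Nf1 codes for neurofibromin, an inhibitor of Ras, and heterozygous mice keep an intact copy in all cells. The labels do not say which Nf1 allele the mice carried. Nothing in the labels ties libraries to separate litters, and the error behind each p-value is the spread among these pooled samples, which may be technical.

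The proteasome degrades proteins that carry chains of ubiquitin. Its 20S core is a stack of rings of alpha subunits, which gate the entrance, and beta subunits, of which Psmb5, Psmb6 and Psmb7 carry the active sites. The 19S cap holds a ring of ATPases, the Psmc proteins, which unfold substrates, and a group of Psmd proteins that bind ubiquitin chains and cut them off. Psme proteins are alternative activators that open the core without ubiquitin: Psme1 forms a ring with Psme2, Psme3 forms a ring of its own in the nucleus, and Psme4 is a large single-chain cap. In neurons, proteasome activity at synapses takes part in plasticity.

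All 30 arrays had been brought to a common trimmed mean by the authors, and array medians lay between 49.99 and 59.11. Nf1 itself was dim, at an intensity of 6.68 ± 4.31 in Nf1+/- libraries and 7.36 ± 4.92 in wild-type libraries (SD, n = 15 each). Its difference, -0.13 on the log2 scale (SE 0.35), did not pass a permutation test within ages (two-sided p = 0.736), so the probe set did not check the genotype labels. Of 12 hippocampal neuron markers, 10 were on the array. Gria1, Nrgn, Zbtb20, Neurod6, Wfs1, Neurod2 and Snap25 were bright in every library, with lowest intensities between 153 and 1876, whereas Camk2a, Prox1 and Pcp4 were dim. No value on the arrays was at or below 0 (0 values). The library Nf1+/- P18 1b stood apart: its ratio of the 3' to the 5' probe set of Gapdh, a measure of RNA quality, was 1.40, against 0.793 to 1.12 in the other 29 libraries. The same ratio for Actb was 2.20 in that library, against 1.07 to 1.48 in the others. Its correlation with the other Nf1+/- library at P18 was 0.930, whereas libraries of the other groups correlated with their own group at 0.961 to 0.984 on average. That value is shared by both P18 libraries, so it does not tell which of them deviated. Results that rest on it are given with and without it.

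The first comparison asked how these genes differed between weaned and early postnatal hippocampus, as P28 and P32 against P10 averaged over both genotypes, with 7 libraries at each end. A probe set was called at a Benjamini-Hochberg adjusted p below 0.05 in limma, over 7453 probe sets. Of the 42, 17 rose and 8 fell. Over all probe sets tested, 24.7% rose and 29.0% fell. The median change of the 42 was 0.12 on the log2 scale, beside -0.06 over all probe sets. With only the brightest probe set of each gene, 15 of 36 rose and 7 fell. Mean intensities over the 30 arrays ran between 167 and 1614 for alpha subunits, 98.5 and 1231 for beta subunits, 142 and 1085 for ATPases, 52.9 and 874 for non-ATPases and 133 and 238 for activators. Levels of bulk tissue were measured, so fewer cells of a type and less RNA per cell cannot be told apart. Groups that did not overlap, with all 7 P28 and P32 libraries on the same side of all 7 P10 libraries, were found for 12 of the 42 (7 higher and 5 lower), beside 26.9% of all probe sets tested.

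**Figure D1:**
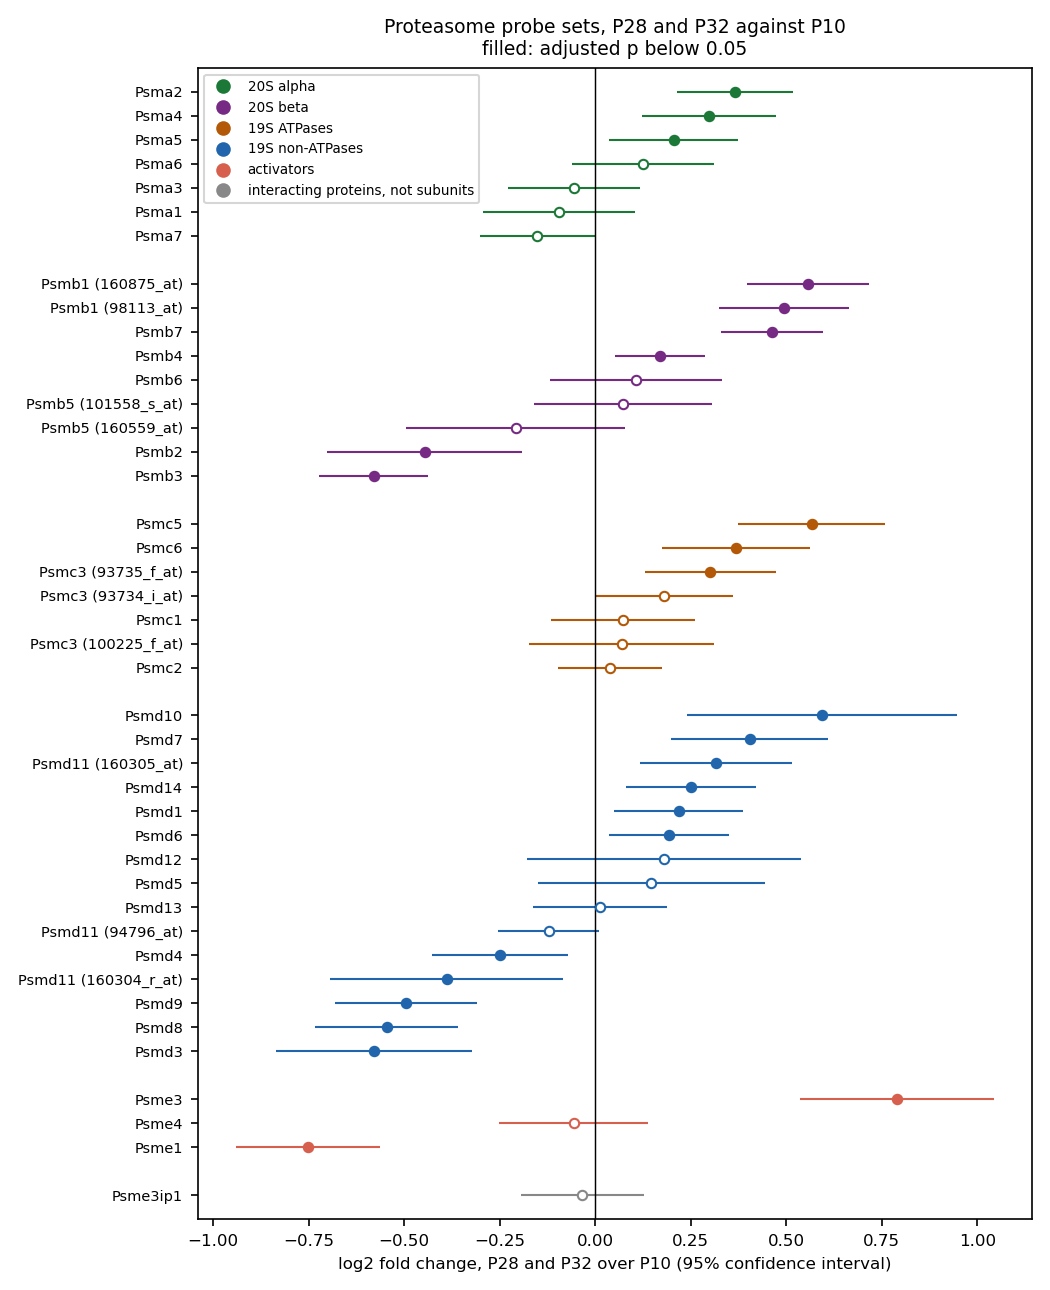
Log2 fold change of each of the 42 proteasome probe sets between the P28 and P32 libraries (n = 7) and the P10 libraries (n = 7), averaged over both genotypes, with 95% confidence intervals from limma. Filled points have an adjusted p below 0.05, and colours mark the role; changes run between -0.75 for Psme1 and 0.79 for Psme3, and the beta subunits, the non-ATPases and the activators each hold calls in both directions.

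The activators held the member with the largest fall and the member with the largest rise. Psme1 codes for the alpha subunit of the 11S activator, PA28, which is best known for its part in making peptides for antigen presentation. Its intensity ran between 181 and 226 (median 202) in the P28 and P32 libraries, against 317 to 384 (median 336) in the P10 libraries. No P28 or P32 library reached the lowest P10 library, and the fall was 1.68-fold (log2 -0.75, SE 0.09, adjusted p = 2.98e-07). Psme3, the nuclear activator PA28gamma, went the other way. It had 233 to 291 (median 258) in the P28 and P32 libraries, against 140.0 to 172 (median 148) in the P10 libraries. Here too the groups did not overlap, and the rise was 1.73-fold (log2 0.79, SE 0.12, adjusted p = 9.44e-06). Psme4, the activator PA200, had 106 to 175 (median 132) against 119 to 169 (median 133) in P10 libraries, and its groups overlapped. Its change was -0.06 on the log2 scale (95% confidence interval -0.25 to 0.14, adjusted p = 0.631).

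Psme1 fell early. At P15 its 8 libraries had 186 to 291 (median 234), all below the lowest P10 library, a log2 change of -0.55 (SE 0.09, adjusted p = 4.15e-05). A further step from P15 to P18 was -0.45 (SE 0.10, adjusted p = 0.0248), but -0.30 without Nf1+/- P18 1b (adjusted p = 0.173). Nf1+/- P18 libraries had 206 and 136, and wild-type P18 libraries had 199.9 and 154. Between P20 and P32 all its libraries lay between 177 and 226. Psme3 at P15 had 153 to 252 (median 210.1), overlapping the P10 libraries, with a log2 rise of 0.38 (SE 0.12, adjusted p = 0.0178). The plot of intensity by age shows both courses.

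**Figure D2:**
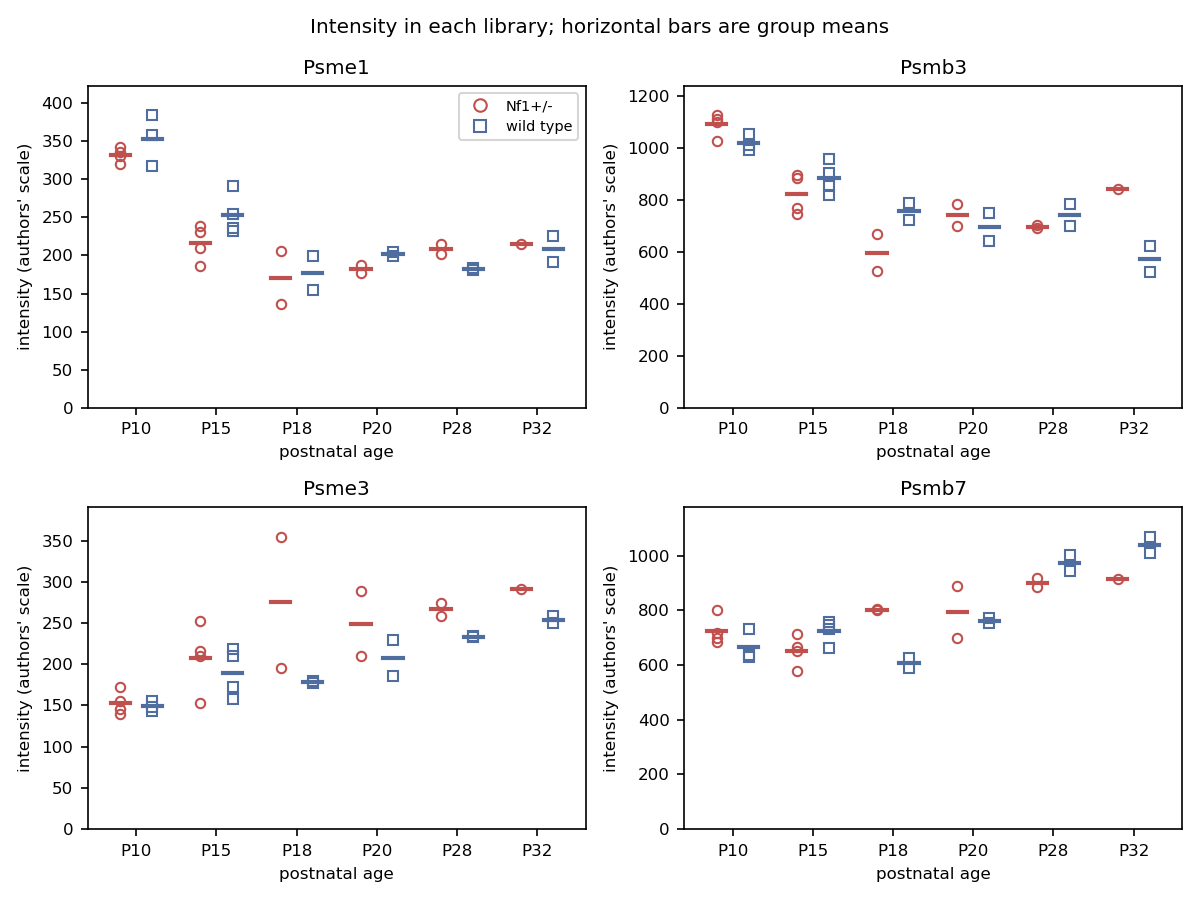
Intensity on the authors' linear scale in each library by postnatal age for Psme1, Psmb3, Psme3 and Psmb7, with Nf1+/- libraries as circles left of wild-type libraries as squares and bars at group means. Psme1 lies between 317 and 384 at P10 and at 226 or less at P28 and P32, whereas Psme3 lies between 140.0 and 172 at P10 and at 233 or more at P28 and P32.

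Among the beta subunits, 4 probe sets rose and 2 fell of 9. Psmb3, a structural beta subunit with no active site, had the smallest p of all members. It had 521 to 839 (median 698) in the P28 and P32 libraries, against 990.0 to 1125 (median 1051) in the P10 libraries. The groups did not overlap, and the fall was 1.49-fold (log2 -0.58, SE 0.07, adjusted p = 2.35e-07). Psmb2, also without an active site, had 275 to 445 (median 407), against 433 to 626 (median 551) in P10 libraries, so the groups met only between 433 and 445, and it fell 1.36-fold (log2 -0.45, SE 0.12, adjusted p = 0.00405). Psmb1 rose on both of its probe sets. Its brighter one had 1315 to 1477 (median 1395), against 819 to 1029 (median 969) in P10 libraries, a 1.47-fold rise (log2 0.56, SE 0.08, adjusted p = 1.88e-06). The other had 584 to 863 against 435 to 544, and a log2 rise of 0.49 (SE 0.08, adjusted p = 2.27e-05). Both Psmb1 probe sets separated the groups. Psmb4, a structural beta subunit, rose by a log2 of 0.17 (SE 0.06, adjusted p = 0.0158), with overlapping groups.

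Of the catalytic subunits, only Psmb7 was called, and differences between these subunits were not tested. Psmb7, which carries the trypsin-like site, had 885 to 1069.9 (median 944) in the P28 and P32 libraries, against 631 to 800.0 (median 698) in the P10 libraries. Its groups did not overlap, and it rose 1.38-fold (log2 0.46, SE 0.07, adjusted p = 2.25e-06). Psmb6, which carries the caspase-like site, had 482 to 707 (median 641), against 449 to 686 (median 562) in P10 libraries. Its log2 change of 0.11 had a 95% confidence interval of -0.12 to 0.33 (adjusted p = 0.422). Psmb5, the chymotrypsin-like subunit and the main target of proteasome inhibitor drugs, had 2 probe sets, and neither was called. The brighter had 763 to 985 (median 848), against 773 to 917 (median 824) in P10 libraries, with a log2 change of 0.07 (95% confidence interval -0.16 to 0.31, adjusted p = 0.604). The dimmer had 57.9 to 101 against 77.4 to 122, and a log2 change of -0.21 (95% confidence interval -0.49 to 0.08, adjusted p = 0.209).

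Of the 7 alpha subunits, 3 rose and 0 fell, and 4 had an unadjusted p below 0.05, beside 4411 of all 7453 probe sets. Psma2 had 976 to 1246 (median 1199), against 759.8 to 1031 (median 937) in P10 libraries. It rose by a log2 of 0.37 (SE 0.07, adjusted p = 2.00e-04), and its groups overlapped at their edges. Psma4 rose by a log2 of 0.30 (SE 0.08, adjusted p = 0.00481) and Psma5 by 0.21 (SE 0.08, adjusted p = 0.0373). Psma7 had the lowest change of the alpha subunits, -0.15 on the log2 scale (adjusted p = 0.0805), and was not called. Under quantile normalization Psma5 lost its call (0.13, adjusted p = 0.170) and Psma7 was called lower (-0.22, adjusted p = 0.0142). The Psma5 call was also lost without Nf1+/- P10 1a, 1b or 2b, P28 1a or P32 1a, or wild-type P10 1b or 2a, P28 1a, P32 1a or P32 1b (adjusted p up to 0.134). The Psma7 call appeared without wild-type P10 2b (adjusted p = 0.0335).

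Of the 7 probe sets of 19S ATPases, 3 rose and 0 fell, and 3 had an unadjusted p below 0.05. Psmc5 had 416 to 542 (median 479.7), against 275 to 358 (median 340.2) in P10 libraries. The groups did not overlap, and the rise was 1.48-fold (log2 0.57, SE 0.09, adjusted p = 1.80e-05). Psmc6 had 1138 to 1413 (median 1263), against 792 to 1087 (median 937), again without overlap, with a log2 rise of 0.37 (SE 0.09, adjusted p = 0.00199). Psmc3 had 3 probe sets, and only the brightest was called, at a log2 change of 0.30 (SE 0.08, adjusted p = 0.00370). The others gave 0.18 (adjusted p = 0.0864, and 0.0396 without Nf1+/- P32 1a) and 0.07 (adjusted p = 0.639). Psmc1 and Psmc2 changed by 0.07 and 0.04 on the log2 scale and were not called.

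The 19S non-ATPases were split, with 6 probe sets up and 5 down of 15. Psmd3, Psmd6, Psmd7 and Psmd8 belong to the lid, the part of the cap that removes ubiquitin chains. Psmd6 rose, with groups that did not overlap, and Psmd1 rose with overlapping groups. Psmd8 had 259.9 to 307 (median 280.3), against 387 to 487 (median 416) in P10 libraries, and fell 1.46-fold (log2 -0.55, SE 0.09, adjusted p = 2.10e-05). Psmd3 had 264 to 404 (median 319), against 465 to 584 (median 497), and fell 1.49-fold (log2 -0.58, SE 0.12, adjusted p = 3.99e-04). Neither had overlapping groups. Psmd7, the partner of the deubiquitinase Psmd14, had 659.7 to 826 (median 710.2), against 429 to 698 (median 593), and rose by a log2 of 0.40 (SE 0.10, adjusted p = 0.00145). Psmd14 itself rose by 0.25 (SE 0.08, adjusted p = 0.0129, and 0.0645 under quantile normalization), and Psmd4, a ubiquitin receptor, fell by 0.25 on the log2 scale (adjusted p = 0.0181). The Psmd4 call rests on wild-type P10 library 1b: without it the change was -0.20 (adjusted p = 0.0670).

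Psmd5, Psmd9 and Psmd10 are chaperones that help assemble the cap and leave the finished particle. Psmd9 had 113 to 149 (median 130.0), against 161 to 209.7 (median 183) in P10 libraries, with no overlap, and fell 1.41-fold (log2 -0.50, SE 0.09, adjusted p = 6.53e-05). Psmd10, gankyrin, had 51.0 to 97.4 (median 64.7), against 30.4 to 57.0 (median 45.5), and rose 1.51-fold (log2 0.59, SE 0.17, adjusted p = 0.00535), with overlapping groups. Psmd5 changed by 0.15 (adjusted p = 0.404). Psmd11, a lid subunit, gave 3 answers. Its brightest probe set changed by -0.12 (adjusted p = 0.111, and 0.0301 under quantile normalization), the next rose by 0.32 (SE 0.10, adjusted p = 0.00793) and the dimmest fell by 0.39 (SE 0.15, adjusted p = 0.0296). The fall lost its call without Nf1+/- P10 1a, P10 2b or P32 1a, or without wild-type P10 1b, P28 1a or P32 1a (adjusted p up to 0.0861) and under quantile normalization (-0.24, adjusted p = 0.166), and no direction is given for the gene.

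**Figure D3:**
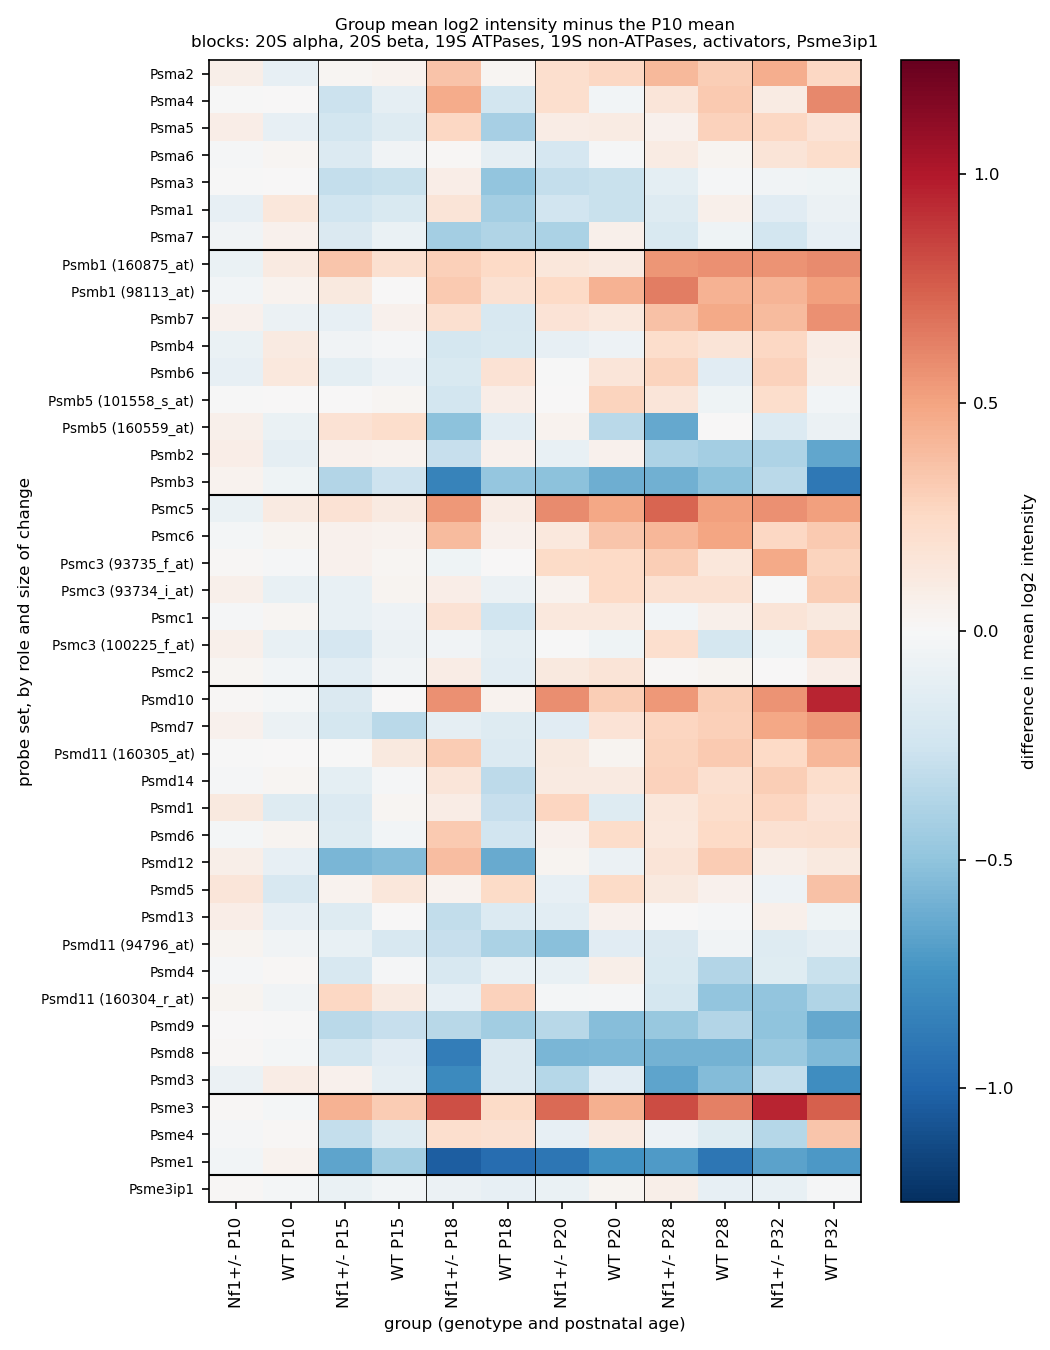
Group mean log2 intensity of each of the 42 probe sets minus its mean over the 7 P10 libraries, for Nf1+/- left of wild type at each age; red is higher and blue lower, and black lines part the roles. Psme3 and Psmb1 are red and Psme1, Psmb3 and Psmd9 blue at P28 and P32 in both genotypes, and Nf1+/- P18 differs from wild-type P18 in many rows.

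The upstream sequences of the members with the extreme changes are given here, since proteasome genes are known to be induced by the factors Nfe2l1 and Nfe2l2. These are the 250 bases before the transcription start, from RefSeq's GRCm38.p6 (mouse) table, written 5' to 3' on the gene's strand. Capitals mark TGANNNNGC, the core of the element those factors bind, and CCAAT, the box bound by NF-Y, on either strand.
Psme3 at chr11:101315963-101316212, plus strand: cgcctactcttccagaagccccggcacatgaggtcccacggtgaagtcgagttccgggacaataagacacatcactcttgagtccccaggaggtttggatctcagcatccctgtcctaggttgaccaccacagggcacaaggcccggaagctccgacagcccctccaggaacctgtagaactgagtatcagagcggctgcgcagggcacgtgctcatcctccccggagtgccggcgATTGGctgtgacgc
Psme1 at chr14:55578244-55578493, plus strand: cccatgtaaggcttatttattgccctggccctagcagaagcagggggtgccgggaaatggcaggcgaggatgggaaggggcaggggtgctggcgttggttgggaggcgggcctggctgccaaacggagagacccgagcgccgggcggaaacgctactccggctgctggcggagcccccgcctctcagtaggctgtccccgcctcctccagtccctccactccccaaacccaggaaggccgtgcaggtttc
Psmb3 at chr11:97703184-97703433, plus strand: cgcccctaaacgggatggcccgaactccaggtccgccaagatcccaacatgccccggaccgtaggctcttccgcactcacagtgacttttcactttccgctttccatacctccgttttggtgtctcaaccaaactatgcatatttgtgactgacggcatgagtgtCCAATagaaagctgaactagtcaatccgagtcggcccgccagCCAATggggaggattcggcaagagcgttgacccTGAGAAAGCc

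Psmb3 holds 1 match to TGANNNNGC and 2 to CCAAT, Psme3 holds 1 CCAAT on the other strand, and Psme1 holds neither. Of the 35 member genes other than Psme3ip1, 29 had an entry. TGANNNNGC was found in 10 of the 29 (34.5%), beside 35.1% of all 27025 promoters, and CCAAT in 12 (41.4%), beside 34.5% of all. Among genes with an entry that fell with maturation, 2 of 5 held TGANNNNGC, and among those that rose, 3 of 11 did. A match to these letters is not evidence of binding. Psmb1, Psmb2, Psmb7, Psmc3, Psmd3 and Psmd7 were not among the entries.

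The change was also fitted within each genotype. In Nf1+/- libraries (3 at P28 and P32, 4 at P10) 15 probe sets were called, 10 up and 5 down. Of all 7453 probe sets 36.5% were called, 1265 up and 1453 down. In wild-type libraries (4 and 3) 20 were called, 14 up and 6 down, beside 38.2% of all, 1344 up and 1501 down. On the log2 scale Psme1 changed by -0.65 in Nf1+/- and by -0.86 in wild type, Psme3 by 0.87 in Nf1+/- and by 0.71 in wild type, and Psmb7 by 0.33 in Nf1+/- and by 0.60 in wild type, each called in both genotypes. The difference in maturation between genotypes was called for 0 members and 0% of all probe sets (0 of 7453) in limma. At an unadjusted p below 0.05 it gave 508 of all 7453 probe sets and 3 members. These were Psmb4 (0.30, 95% confidence interval 0.07 to 0.54), Psmb6 (0.54, 0.09 to 0.996) and Psmb7 (-0.27, -0.54 to -0.00), as Nf1+/- minus wild type, with adjusted p between 0.663 and 0.730. Psmb6 had 641, 706 and 676 in Nf1+/- P28 and P32 libraries, against 492, 518, 482 and 707 in wild-type ones.

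The steps between neighbouring ages place the changes in time. Between P10 and P15, 2 probe sets rose and 6 fell, beside 12.5% and 13.4% of all, and the median of the 42 was -0.07, beside -0.02. Psmb1 rose by a log2 of 0.26 (SE 0.07, adjusted p = 0.0110) in addition to Psme3, but its dimmer probe set changed by 0.05 (adjusted p = 0.655). Besides Psme1, Psmb3 fell by 0.31 (SE 0.07, adjusted p = 0.00117), with 745 to 957 at P15 against 990.0 to 1125 at P10 and no overlap. The alpha subunit Psma3 had 1338 to 1604 at P15, against 1684 to 1889 at P10, and fell by 0.29 (SE 0.08, adjusted p = 0.00912), also with no overlap. By P28 and P32 Psma3 was at 1613 to 1845, with a change against P10 of -0.06 (adjusted p = 0.595). Psmd12, a lid subunit, had 105 to 304 at P15, against 263 to 352 at P10, and fell by 0.54 (SE 0.16, adjusted p = 0.0165). Psmd9 and Psmd7 fell by 0.31 (adjusted p = 0.00890) and 0.27 (adjusted p = 0.0356). The Psmd7 call was lost without Nf1+/- P10 1a, 1b or 2a, Nf1+/- P15 2c or 2d, or wild-type P10 2a or 2b or P15 1b or 2d (adjusted p up to 0.130), and its change over the whole span was upward. With the Gapdh 3' to 5' ratio as a covariate Psma3 and Psmd12 (adjusted p = 0.0991 each), Psme3 (adjusted p = 0.182) and Psmd7 (adjusted p = 0.0581) lost their calls. Groups that did not overlap numbered 3 of 42, all lower at P15, beside 8.14% of all probe sets.

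Later steps held few calls. From P15 to P18, 1 probe set rose and 2 fell, beside 1.95% and 1.89% of all. Psme4 rose by a log2 of 0.43 (SE 0.11, adjusted p = 0.0295), with 146 and 168 in Nf1+/- and 159 and 149.7 in wild-type libraries at P18, against 94.3 to 135 at P15. Psmb3 fell by 0.35 (SE 0.08, adjusted p = 0.0217). With array weights Psme1, Psmb3 and Psme4 all lost their calls in this step (adjusted p between 0.219 and 0.285), as they did in the fit that held the Gapdh ratio (adjusted p between 0.0787 and 0.0974). Without Nf1+/- P15 1d this step had 1 call among the members and without Nf1+/- P15 2d 6, beside 0.953% and 5.19% of all. Its calls were lost without Nf1+/- P18 1b or wild-type P18 1d. The count fell without wild-type P18 1c and rose without Nf1+/- P18 1a, as it did over all probe sets. From P18 to P20 limma called 0 of 42, beside 0.0134% of all. Calls appeared without Nf1+/- P18 1a, among members and over all probe sets. With all libraries 2 members had an unadjusted p below 0.05. The smallest p-values belonged to Psmc3 (brightest probe set, 0.27, adjusted p = 0.582), Psma7 (0.23, adjusted p = 0.582) and Psmd14 (0.20, adjusted p = 0.677). From P20 to P28, 3 of 42 members were called, beside 8.06% of all probe sets, so members were called no more often than all. These 3 were rises of beta subunits. The split of the 8.06% into rises and falls is not given here, and 8 members had an unadjusted p below 0.05. Psmb1 rose by 0.44 (SE 0.10, adjusted p = 0.00860), with 1438 and 1316 in Nf1+/- and 1477 and 1315 in wild-type libraries at P28, against 1071 and 998 in Nf1+/- and 1007 and 1016 in wild-type libraries at P20. Its dimmer probe set changed by 0.19 (adjusted p = 0.291). Psmb4 rose by 0.27 (SE 0.07, adjusted p = 0.0245) and Psmb7 by 0.27 (SE 0.08, adjusted p = 0.0462). Without Nf1+/- P20 library 1b, or without Nf1+/- P28 library 1a, this step had 0 calls. The Psmb7 call was lost in most fits that left out 1 library (adjusted p up to 0.277). The step had 1 call without wild-type P28 1b, P20 2a or P20 2b, and 5 without either Nf1+/- P18 library. From P28 to P32 there were 0 calls among members in limma, beside 0.0134% of all, and 0 with an unadjusted p below 0.05. The smallest p-values belonged to Psmd7 (0.23), Psmd10 (0.33) and Psmc3 (brightest probe set, 0.15), each with an adjusted p of 0.9995.

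Genes that work with the proteasome were taken from lists that do not overlap the members. The immunoproteasome subunits replace the catalytic ones after interferon. Psmb10 fell with maturation by 0.37 on the log2 scale (SE 0.10, adjusted p = 0.00422), with 229 ± 41.6 at P28 and P32 against 298 ± 14.8 at P10 (SD, n = 7 each). Psmb8 was not called (0.49, adjusted p = 0.0652), and Psmb9 was too dim to be tested. Of 7 measured genes, namely the assembly factors Psmg1, Psmg2, Psmg3, Psmg4 and Pomp with the proteasome-binding protein Ecpas and the nuclear import factor Akirin2, 1 rose and 3 fell. The core chaperones Psmg3 and Psmg4 fell by 0.72 (adjusted p = 2.77e-04) and 0.69 (adjusted p = 4.08e-05), and Psmg1 by 0.34 (adjusted p = 0.0359). The rise was that of Akirin2 (0.24, adjusted p = 0.0340). Pomp, which matures the core, fell by 0.62 between P10 and P15 (adjusted p = 0.00139), but over the whole span its change was -0.04 (adjusted p = 0.811).

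Of 10 measured ubiquitin receptors, shuttles and deubiquitinases, 5 rose and 3 fell with maturation. Uchl5, a deubiquitinase that sits on the cap, rose 2.40-fold (log2 1.27, SE 0.12, adjusted p = 7.12e-09), with 156 ± 25.6 at P28 and P32 against 63.9 ± 4.90 at P10 (SD, n = 7 each). It was also the list's sole call from P10 to P15 (0.44, adjusted p = 0.00567). The shuttle Ubqln2 rose by 0.76 (adjusted p = 8.30e-06), and Uchl1, an abundant neuronal hydrolase, fell by 0.72 (adjusted p = 1.52e-06). The list of ubiquitin and its enzymes had 10 measured genes, all of them Ube2 conjugating enzymes except the ligase Ube3a, and ubiquitin itself and its activating enzymes were not analysed here. Of the 10, 6 rose and 0 fell, among them Ube2b (0.72, adjusted p = 2.91e-08), Ube2d3 (0.59, adjusted p = 8.91e-06) and Ube2a (0.56, adjusted p = 8.85e-05). From P10 to P15 this list had 2 rises, Ube2h (0.33, adjusted p = 0.0209) and Ube2b (0.23, adjusted p = 0.0196), and 1 fall, Ube2d2a (-0.63, adjusted p = 1.05e-05). Of 6 measured regulators, 3 rose and 2 fell with maturation. Nfe2l2 rose by 0.67 (adjusted p = 1.75e-04) and Nfe2l1 by 0.32 (adjusted p = 0.00140), and the NF-Y subunit Nfya fell by 0.45 (adjusted p = 3.15e-04), whereas the subunit Nfyb rose by 0.27 (adjusted p = 0.0345). From P10 to P15 this list had 1 rise, Nfe2l1 (0.38, adjusted p = 3.59e-04), and 1 fall, Nfya (-0.43, adjusted p = 7.73e-04).

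Cell type markers and array measures moved with age too, and their part in these changes was not tested. Myelin markers summed to 7535 to 9277 in P28 and P32 libraries, against 672 to 1070.2 in P10 libraries, with 7 of 7 tested genes up. Immature neuron markers summed to 7138 to 8782 against 13799 to 15642, with 9 of 9 down. Astrocyte markers summed to 7824 to 9188 against 5097 to 5605, with 6 of 8 up and 1 down. Endothelial markers summed to 440.1 to 658 against 880.3 to 994, with 4 of 6 down. Of the interferon-induced genes, 3 of 7 tested rose and 0 fell (sums of 1404 to 1826 against 937 to 1172). Psme1 and Psmb10 fell, whereas the change of Psmb8 was upward and not called, as given above. Calls up and down were 2 and 1 of 9 for hippocampal neuron markers, 3 and 4 of 8 for interneurons, 4 and 1 of 8 for microglia, 1 and 0 of 3 for choroid plexus, 0 and 1 of 3 for blood, and 2 and 3 of 7 for cerebellum and thalamus. The Gapdh 3' to 5' ratio was 0.909 to 1.11 at P28 and P32, against 0.904 to 1.04 at P10. That of Actb was 1.32 to 1.44 at P28 and P32, against 1.13 to 1.32 at P10.

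The comparison of genotypes asked whether Nf1+/- hippocampus differed from wild type in these genes. Over all ages 0 of 42 were called, and 0% of all probe sets (0 of 7453), in limma. At an unadjusted p below 0.05, beside 698 of all 7453 probe sets, there were 3 members. These were Psma7 (log2 -0.14, adjusted p = 0.421), Psme3 (0.20, adjusted p = 0.468) and Psma2 (0.11, adjusted p = 0.529). For Psme3 the 95% confidence interval was 0.03 to 0.36. For the catalytic Psmb5 (brighter probe set), Psmb6 and Psmb7 the intervals were -0.20 to 0.12, -0.23 to 0.10 and -0.09 to 0.13. For Psme1 the interval was -0.21 to 0.05 and for Psme4 -0.27 to 0.02.

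Age by age, calls came at P18 alone. At P10, P15, P20, P28 and P32 limma called 0 members, beside 0.0403%, 0%, 2.27%, 0.0134% and 0.0537% of all probe sets. At an unadjusted p below 0.05 there were 2, 0, 3, 2 and 3 members, beside 443, 440, 1216, 385 and 509 of all 7453 probe sets. The smallest p-values belonged to Psmd1 (0.27, adjusted p = 0.700), Psmb4 (-0.19, adjusted p = 0.700) and Psma1 (-0.24, adjusted p = 0.844) at P10. At P15 they belonged to Psme1 (-0.23, adjusted p = 0.858), Psmb7 (-0.15) and Psmd1 (-0.19, adjusted p = 0.867 for both). At P28 Psmb5 had 870 and 985 in Nf1+/- and 763 and 840 in wild-type libraries on its brighter probe set. The smallest p-values there belonged to Psmb5 (dimmer probe set, the other way, -0.65, adjusted p = 0.889), Psmb6 (0.41) and Psmc3 (dimmest probe set, 0.43, adjusted p = 0.950 for both). At P32, with 1 Nf1+/- library whose spread is taken from the other groups, they belonged to Psmb3 (0.56, adjusted p = 0.349), Psme4 (-0.70, adjusted p = 0.393) and Psma4 (-0.50, adjusted p = 0.576). At P20 they belonged to Psma7 (-0.45, adjusted p = 0.0671), Psmd11 (brightest probe set, -0.39, adjusted p = 0.0732) and Psmd1 (0.43, adjusted p = 0.124). Psma7 had 429 and 453 in Nf1+/- and 618 and 589.3 in wild-type libraries at P20. Psmd11 had 661 and 685 in Nf1+/- and 845 and 918 in wild-type libraries at P20. Neither gene's groups overlapped, but how many of all probe sets shared this at P20 was not counted. Both genes were called in the fit without both Nf1+/- P18 libraries, an alternative chosen after the data were seen. The adjusted p was then 0.0406 for Psma7 and 0.0484 for Psmd11. That fit called 2 of 42 members, beside 4.71% of all probe sets. Under array weights, an alternative not chosen that way, 2 members were called lower, beside 5.19% of all. With the title code's number as a block, also chosen after the data were seen, the adjusted p was 0.102 for Psma7 and 0.206 for Psmd11.

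At P18, 9 probe sets were higher and 2 lower in Nf1+/-, beside 11.0% and 11.8% of all. The median of the 42 was 0.10, beside -0.05 over all probe sets. Of the alpha subunits, 4 of 7 were called higher. Psma4 had 628 and 1065 in Nf1+/- libraries 1a and 1b, against 505 and 508 in wild-type libraries (log2 0.69, SE 0.15, adjusted p = 0.00376). Psma5 had 445 and 767 against 371 and 359 in wild type (0.68, SE 0.15, adjusted p = 0.00335), and Psma3 had 1438 and 2479 against 1311 and 1222 in wild type (0.58, SE 0.15, adjusted p = 0.0101). In each of these genes library 1b was the highest of the 4 by a wide margin, and 1a lay above both wild-type libraries. Psmb7 had 805 and 801 against 589.6 and 626 in wild type, so its Nf1+/- libraries lay close together (0.40, SE 0.12, adjusted p = 0.0186). Psmd6, a lid subunit, had 726 and 945 against 591 and 525 (0.57, SE 0.14, adjusted p = 0.00596). The lower calls were Psmd8, with 288 and 187 against 387 and 356 (-0.68, SE 0.16, adjusted p = 0.00612), and Psmb3, with 666 and 525 against 787 and 723 (-0.35, SE 0.13, adjusted p = 0.0476). Groups did not overlap for 23 of the 42 (19 higher, 4 lower), beside 56.0% of all probe sets.

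These calls depended on the library that stood apart. Without Nf1+/- P18 1b, 1 member was called at P18, and it was not among the 11. Psme3 was then 0.99 higher on the log2 scale (adjusted p = 0.0210), with 355 in library 1a against 179 and 177 in wild type, whereas library 1b had 196. The change of Psma4 was then 0.31 (adjusted p = 0.177), of Psma5 0.29 (adjusted p = 0.156), of Psma3 0.18 (adjusted p = 0.422), of Psmd6 0.38 (adjusted p = 0.163) and of Psmd8 -0.37 (adjusted p = 0.230). Psmb7 kept its size, at 0.41 (adjusted p = 0.109). The count of members called, and that over all probe sets, rose without 1a and fell without wild-type 1c or 1d. The Gapdh ratio was highest in library 1b, so a fit with it as a covariate is not separate from leaving 1b out. With that covariate the sole call was Psme3 (1.09, adjusted p = 0.0402). Psmb7 was then 0.56 (adjusted p = 0.0639) and Psmd6 0.47 (adjusted p = 0.183), whereas Psma4 was 0.26 (adjusted p = 0.414) and Psma5 0.21 (adjusted p = 0.458). Marker sums moved beside these genes: astrocyte markers summed to 7060.1 and 9135 in Nf1+/- libraries 1a and 1b, against 6209 to 6639 in wild-type libraries. Blood markers summed to 2952 and 1739.8, against 3635 to 4489, and microglia markers to 2394 and 2010.1, against 2686 to 2690.4. Calls up and down with all 4 libraries were 2 and 1 of 8 for astrocytes and 0 and 2 of 3 for blood. Microglia had 0 and 4 of 8, hippocampal neurons 3 and 0 of 9 and immature neurons 2 and 1 of 9. Endothelium had 2 and 0 of 6, interneurons 1 and 0 of 8 and myelin 0 and 0 of 7. Interferon-induced genes had 0 and 1 of 7, choroid plexus 0 and 1 of 3, and cerebellum and thalamus 0 and 1 of 7. Medians (log2) with all 4 libraries and then without 1b, which leaves 1 Nf1+/- library, were 0.24 and 0.02 for astrocytes. Blood had -0.85 and -0.53, microglia -0.37 and -0.16, hippocampal neurons 0.16 and 0.38 and immature neurons 0.08 and 0.02. Endothelium had 0.08 and 0.34, interneurons -0.07 and -0.13, myelin 0.06 and 0.08 and interferon-induced genes -0.21 and -0.13. Choroid plexus had -0.41 and -0.66, and cerebellum and thalamus -0.22 and -0.33. Of the partner lists, the conjugating enzymes with Ube3a held 5 calls up and 0 down of 10 at P18. The ubiquitin receptors held 2 up and 2 down of 10, the regulators 1 up and 1 down of 6, the list of assembly factors with Ecpas and Akirin2 1 up and 0 down of 7 and the immunoproteasome 0 up and 1 down of 2. Without Nf1+/- P18 1b these 5 lists held 0 calls up and 1 down, the receptor list's Faf1, and 3.54% of all probe sets were called. Over all ages limma called 0 genes of any partner list for genotype. The part of RNA quality and of these cell types was not tested.

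**Figure D4:**
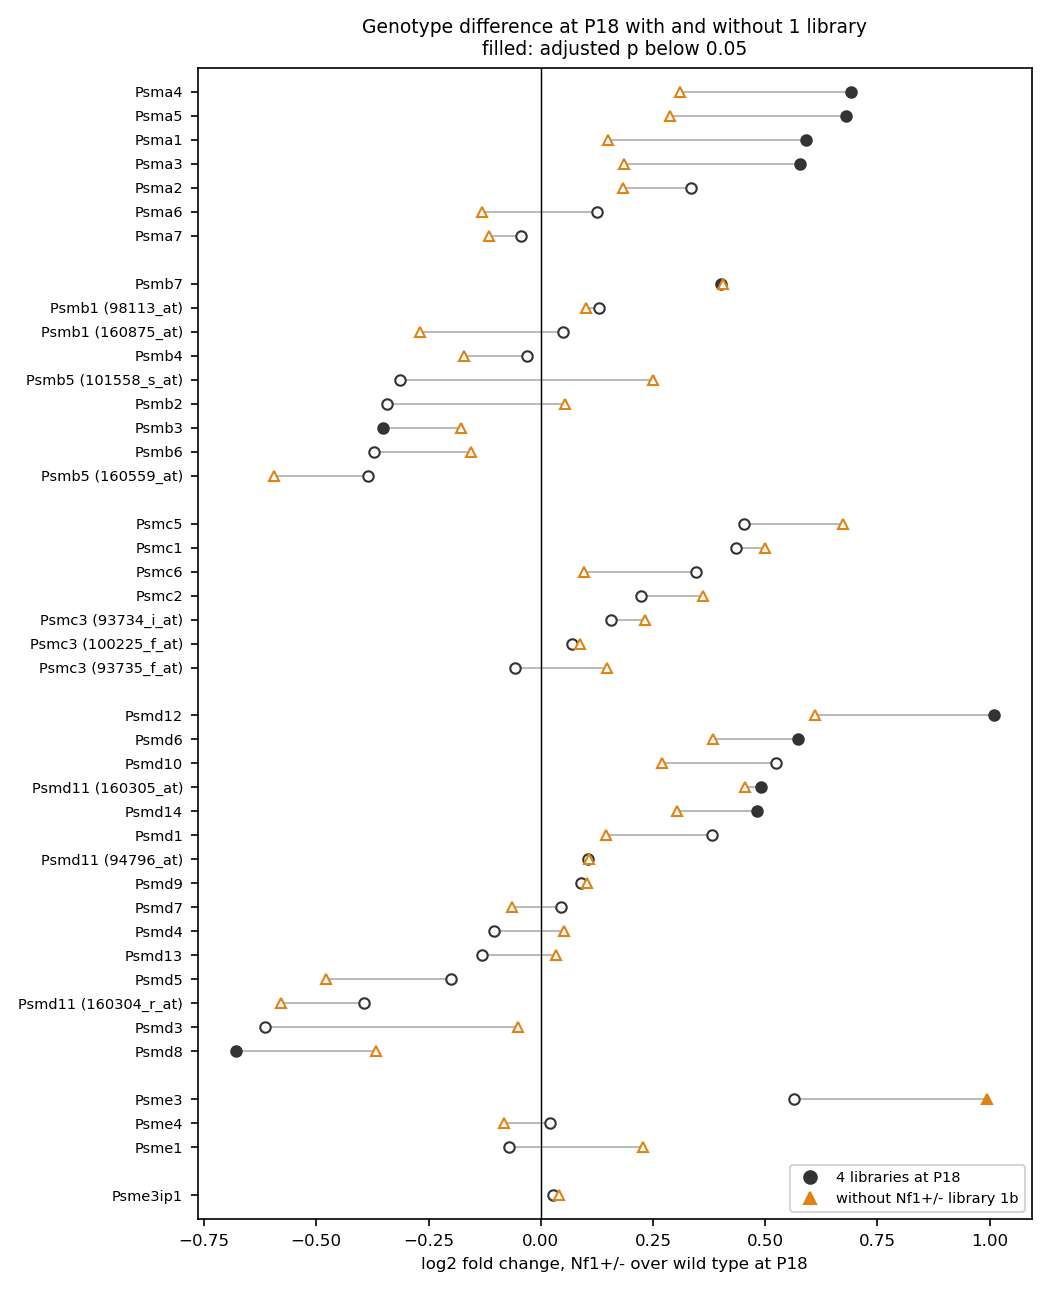
Log2 fold change of Nf1+/- over wild type at P18 for each of the 42 probe sets, with all 4 P18 libraries (circles) and without Nf1+/- library 1b (triangles); filled symbols have an adjusted p below 0.05. With 4 libraries 11 are filled, and without library 1b only Psme3 is.

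The genotype effect differed over ages for 2 members by an F test in limma, beside 6.49% of all probe sets. Psma4 (adjusted p = 0.0224) was higher in Nf1+/- at P18, as above. At P20 it had 684 and 687 in Nf1+/-, against 559 and 599 in wild type. At P28 it had 658 and 659 in Nf1+/-, against 749 and 744 in wild type. At P32 it had 639 in Nf1+/-, against 952 and 854 in wild type. The P15 libraries, before these ages, had 445 to 519 in Nf1+/- and 486 to 596 in wild type. Higher values in Nf1+/- were thus seen at P18 and P20 and lower ones at P28 and P32. Taken age by age, genotype was called for Psma4 at P18 alone. Psmb3 (adjusted p = 0.0499) was lower in Nf1+/- at P18, and at P32 it had 839 against 521 and 621 in wild type. The Psmb3 call was lost in most fits that left out 1 library, with adjusted p up to 0.226 without the Nf1+/- P32 library. The count of members rose without Nf1+/- P18 1a and fell without 1b, as it did over all probe sets. Both calls were lost without wild-type P18 1c or 1d. Without both Nf1+/- P18 libraries the count was 0, beside 1.48% of all. The P15 to P18 step itself was compared between genotypes after the data were seen, as the Nf1+/- step minus the wild-type step. It was called higher for 8 members and lower for 0, beside 6.12% and 5.88% of all. Those were Psma4, Psma5, Psmd6, Psma1, Psma3, Psmd14, Psmd1 and Psmb7, with differences between 0.56 and 0.84 on the log2 scale. Without wild-type P15 1a or 1b the count was 4 each, beside 8.71% and 8.43% of all. Without Nf1+/- P15 1d or 2d it was 5 each, beside 9.37% and 7.98%. All calls were lost without Nf1+/- P18 1b. The count rose without Nf1+/- P18 1a and fell without wild-type P18 1c or 1d, as it did over all probe sets.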

How the data were processed

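Total RNA of 30 pools was measured on Affymetrix MG-U74Av2 arrays, and the authors deposited 1 linear intensity per probe set and array. The software behind the deposited intensities was not given in the sources used here. Their trimmed mean (2% cut at each end) was 150.08 to 150.09 on all arrays, so no further scaling was applied. Gene symbols came from GEO's annotation of the platform. Values below 1 (6295, or 1.68%) were set to 1, log2 was taken, the 40% of non-control probe sets with the lowest mean log2 value were left out (below an intensity of 30.8), and 7453 remained.

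A model of 12 groups of genotype and age was fitted in limma 3.58.1 (R 4.3.3) over all 7453 and all 30 libraries, with genotype plus age for the effect over all ages, and p-values were adjusted by Benjamini-Hochberg over all probe sets. Fits were tested on simulated data. SciPy 1.17.1 ran the permutation test of Nf1. The number of arrays limits the precision, and P32 holds 1 Nf1+/- library. No pairing was used. Deviations of libraries that share a title code had a median correlation of -0.005 over 59 pairs, which cannot exclude pairing. The brightest probe set stands for a gene. Named were the catalytic subunits and activators, the 8 largest calls in each direction for maturation and for P10 to P15, up to 5 calls a direction in other comparisons or the 3 smallest p-values, 3 genes of each partner list, and members with several probe sets. Other members named were chosen after their values were seen. The members and lists were chosen with earlier results of these data known. Alternatives were an offset of 32, no filter, quantile normalization, array weights (statmod 1.5.0), the Gapdh ratio as a covariate, the title code or its number as a block, and each library left out. Promoters were searched in the 250 bases before the start.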

Additional observations from a re-analysis of the deposited data

Results flagged for a closer look

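The step between P15 and P18 differed between genotypes for 8 members, by a test of the difference (limma, adjusted over all probe sets). As Nf1+/- minus wild type on the log2 scale the differences were 0.84 for Psma4, 0.75 for Psma5, 0.70 for Psmd6, 0.65 for Psma1, 0.60 for Psma3, 0.58 for Psmd14, 0.57 for Psmd1 and 0.56 for Psmb7. In Psma4 the step was 0.73 in Nf1+/- and -0.11 in wild type, and in Psmb7 it was 0.30 in Nf1+/- and -0.25 in wild type. Without Nf1+/- P18 library 1b, whose 3' to 5' ratios stood apart, limma called 0 of the 8. Psmb7 then had the same size, 0.56 (adjusted p = 0.0896). The differences of Psmd6 and Psma4 were 0.51 (adjusted p = 0.144) and 0.46 (adjusted p = 0.116), those of Psmd14, Psma5 and Psmd1 0.41, 0.36 and 0.34, and those of Psma1 and Psma3 0.21 and 0.20. The genotype effect also varied over ages for Psma4 (adjusted p = 0.0224) and Psmb3 (adjusted p = 0.0499).

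In 6 of 126 groups of 4 libraries 1 library lay far from the other 3, where chance gives about 1 in 20, or 6.3 groups. In Nf1+/- libraries these were Psmd12 at 272 in P15 1c, Psma1 at 165 in P15 2c, Psmd13 at 402 in P10 2a, Psmd3 at 497 in P10 1a and Psmd5 at 284 in P10 1b. In wild-type libraries it was Psmd8 at 346 in P15 2d.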

How the results depend on the processing

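Maturation over both genotypes had 25 members called, and 22 to 26 when 1 library was left out. Within genotypes the ranges were 12 to 18 in Nf1+/- (15 called with all libraries) and 14 to 21 in wild type (20 called). The title code as a replicate block gave 13 calls in wild type, and over both genotypes 12 rises and 6 falls, of which 18 were among the 25. Quantile normalization gave 13 rises and 9 falls, of which 20 were among the 25. The step from P10 to P15 had 8 calls, 7 to 11 with 1 library left out, 5 with the Gapdh ratio and 1 with the block. Genotype at P18 had 11 calls, 1 to 17 with 1 library left out, 2 with array weights, 1 with the Gapdh ratio and 0 with the block. The share of all probe sets called at P18 was 22.8%, against 2.74% with array weights, 1.07% with the Gapdh ratio and 1.68% with the block. Genotype at P20 had 0 calls, 0 to 2 with 1 library left out, 2 with array weights and 2 without both Nf1+/- P18 libraries. The interaction had 2 calls, 0 to 10 with 1 library left out, 1 with an offset of 32, 1 without the filter, and 0 with the Gapdh ratio, the block or without both Nf1+/- P18 libraries. The step from P15 to P18 had 3 calls, 0 to 11 with 1 library left out, 0 with array weights, 1 with the Gapdh ratio and 0 with the block. The step from P18 to P20 had 0 calls, and 0 to 6 with 1 library left out. The step from P20 to P28 had 3 calls, 0 to 5 with 1 library left out, 5 with array weights, 0 with the block and 5 without both Nf1+/- P18 libraries. The genotype difference in the P15 to P18 step had 8 calls, 0 to 17 with 1 library left out, 4 without the filter, 2 with array weights, 0 with the Gapdh ratio and 0 with the block. Counts for genotype over all ages and at P10, P15, P28 and P32, the difference in maturation and the P28 to P32 step were 0 under every alternative run. Of 110 named gene results, 62 were called. Over the alternatives other than left-out libraries, 39 of the 62 lost the call at least once, and 6 of the 48 others gained one. With 1 library left out, 29 of the 62 lost it at least once and 6 of the 48 gained one. With the title code's number as a block, chosen after the data were seen, maturation had 21 calls, P10 to P15 9, genotype at P18 10 and the interaction 1, and of the named results Psma1, Psmb3, Psmd6, Psmd11 (dimmest probe set), Psma5, Psmd14, Psme4 and Psmb7 each lost a call in 1 or more comparisons. In P10 and P15 groups, deviations from the group mean correlated at a median of -0.30 over 7 same-number pairs and -0.46 over 14 others. No named result that was called in either fit changed its sign. The cause of these shifts was not tested. The title codes were not used to pair the libraries: of 59 same-code pairs 12 correlated above 0.1, and of 319 other pairs 46 did. In groups of 2 libraries the deviations mirror each other, so this check cannot exclude pairing. Nf1 differed by -0.13 on the log2 scale, and by -0.20 to 0.17 under the alternatives, far from a call. Signal over background limits what can be said of Psmc4, Psmd2 and the dim second probe sets.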
